A study of Mus musculus with 18 samples.

Results

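The response of differentiated mouse cells to ionizing radiation (IR) was followed 15 min after a dose of 10 Gy, on 6 of the 18 arrays of the series. ED cells are primary mouse cells derived from embryonic stem (ES) cells of blastocyst origin by withdrawing leukemia inhibitory factor (LIF) until pluripotency markers were lost, so both share 1 genetic background. The 3 unirradiated ED arrays were set against the 3 arrays of ED cells taken 15 min after 10 Gy (EDRE), chosen by their sample labels alone, and all 22404 genes with a usable signal were tested. ED cells 4 h after the same dose (EDRL), unirradiated ES cells (ES) and ES cells 15 min after 10 Gy (ESRE), 3 arrays each, were used for comparison. Each sample was hybridized alone to a one-color Agilent array without pooling. The labels speak of irradiation in triplicates and name no separate cultures, so the p-values measure the spread between these samples, which may be technical.

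IR breaks DNA, and the kinase ATM then phosphorylates histone H2AX, Chk2 and p53 within minutes. New transcripts appear first from immediate early genes such as Fos and Egr1, whose transcription starts without new protein synthesis, and p53 target genes follow as p53 accumulates. A sample taken 15 min after IR therefore sits at the start of both programs.

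Levels are log2 signals less that array's 75th percentile, so 0 is the brightness of that percentile and a difference of 1 is a 2-fold difference. The 6 arrays were not alike in brightness. The 75th percentile was 3472 to 4268 on the ED arrays and 3034 on EDRE replicate 1, but 875 on EDRE replicate 2 and 1155 on EDRE replicate 3. On these dim arrays, 49.5% and 55.5% of probes passed the scanner's test for signal well above background, against 72.1% to 81.8% on the other 4 arrays. The scanner software marked 24.4% and 23.8% of their spots as outliers, and these were left out. Among the brightest 10% of the probes tested, the marked share was 80.3% on EDRE replicate 2 and 71.1% on EDRE replicate 3, against at most 3.23% on the other 4 arrays. As a result 26.8% of the probes tested had 1 usable EDRE spot. On EDRE replicate 2, moreover, 35.7% of all probes shared a single lowest value of -6.59. Over the probes usable on both arrays of a pair, the ED arrays correlated with each other at 0.985 to 0.987 (Pearson's r) and with EDRE replicate 1 at 0.976 to 0.980. EDRE replicate 1 correlated with EDRE replicates 2 and 3 at 0.872 and 0.910, where most of the brightest probes did not enter. Values of EDRE replicate 1 are therefore given beside most results for single genes.

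**Figure D1:**
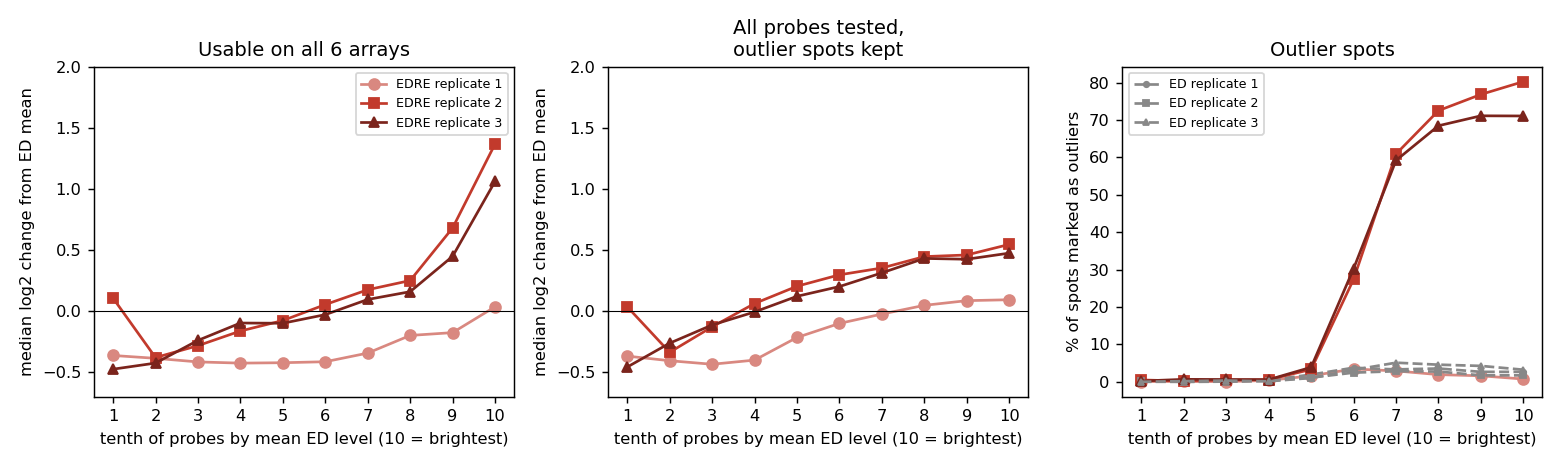
Median log2 change of each EDRE array from the ED mean, in 10 bins of probes ordered by their ED level, for probes usable on all 6 arrays (left) and for all probes tested with outlier spots kept (middle), and the percent of spots marked as outliers (right). In the brightest bin the median was 0.04 for EDRE replicate 1 against 1.37 and 1.06 for replicates 2 and 3, and 0.09 against 0.55 and 0.47 with outlier spots kept.

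Levels of the pluripotency markers went with the label of differentiated cells. Pou5f1 (Oct4), the transcription factor of the pluripotent state, was at -3.59 in ED cells and 6.69 in ES cells, and Nanog was at -6.97 and 1.94. Sox2, shared by pluripotent and neural progenitor cells, was at 2.32 in ED and 4.68 in ES cells. Of 8 mesenchymal markers 7 were well above background on all ED arrays. Among these 7 Col1a1, a chain of fibrillar collagen, was at 7.16, and S100a4 at 6.88 against -3.31 in ES cells. Thy1, the mesenchymal marker that was not, was at -8.71 in ED and 1.23 in ES cells. Detection alone also held for 7 of 8 pluripotent, 5 of 5 neural, 4 of 6 endoderm and 1 of 5 cardiac markers. The blood markers Ptprc, Gata1 and Tal1 were not well above background on any ED array, while Hbb-bh1 (-2.65) and Spi1 (-1.6) were. Among the epithelial markers Epcam and Krt18 were not and Krt8 (-2.73) was. The summed level of the mesenchymal list was 8.91 to 9.24 on the ED arrays and 9.21, 8.96 and 9.02 on the EDRE arrays. That of the pluripotent list was 2.33 to 2.54 on the ED arrays, 2.47 on EDRE replicate 1, and 3.55 and 3.43 on replicates 2 and 3. In such bulk samples fewer cells of a type and less RNA per cell cannot be told apart.

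At 15 min post IR, 500 genes were counted as higher and 665 as lower, each at an adjusted p under 0.05 with a change beyond 1 on the log2 scale. These were 2.23% and 2.97% of the genes tested, 5.2% together. The 2 directions differed in brightness. Probes counted as higher had a median ED level of 0.24 and those counted as lower one of -3.64, and 58.6% of the latter (394 of 672) were well above background on neither EDRE replicate 2 nor 3. Of the probes counted as lower, 258 were at the lowest shared value of EDRE replicate 2. Of the brightest 10% of probes usable on all 6 arrays, 16.4% were counted as higher and 0.264% as lower, and of the dimmest 10% 1.45% and 0%. The part of array brightness in the counts was not tested.

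On EDRE replicate 1 the changes were smaller. Over the probes counted as higher the median change was 0.45 on it against 1.67 and 1.47 on replicates 2 and 3, and 77 of 502 with a usable spot on it were over 1. Over those counted as lower it was -0.82 against -1.75 and -1.97. All 3 arrays entered the calls, so the shared direction is in part fixed by the choice of these probes. The split between directions changed with the scaling. It was 1356 higher and 533 lower with each array set to its median, 358 and 827 with quantile normalization, 1457 and 640 in the authors' value table, 2951 and 144 with normexp background correction, and 5931 and 57 with each array set to the median of probes detected on all ED, EDRE and EDRL arrays, a scaling chosen after the data were seen. ED and EDRE arrays never shared a scan time, so no value within a scan time can be had. When scan time entered the fit as a random block, the counts fell to 0 higher and 1 lower (Rnf13, on 1 usable EDRE spot at the shared lowest value). Of the 24490 probes tested by limma, 1044 then had an unadjusted p under 0.05, fewer than the 1224 expected by chance. Fitting the ED and EDRE arrays alone left 0 and 0 genes by limma, with 3860 probes at an unadjusted p under 0.05 (1218 expected by chance). Single genes below are therefore described by their values on every array.

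**Figure D2:**
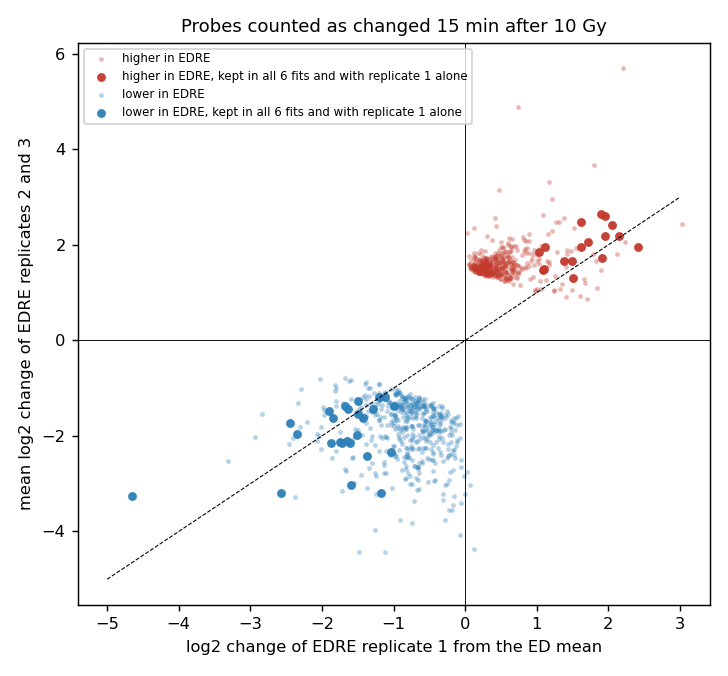
Log2 change from the ED mean on EDRE replicate 1 (horizontal) and mean change on EDRE replicates 2 and 3 (vertical) for probes counted as changed with 3 usable EDRE spots, red for higher and blue for lower, with the line of equality dashed. Large points are those that also passed in all 6 fits without 1 ED or EDRE array and with EDRE replicate 1 alone, so their place along the horizontal axis follows from how they were chosen. Most other points lie farther from 0 on the vertical than on the horizontal axis, with medians of 0.45 on EDRE replicate 1 against 1.67 and 1.47 on replicates 2 and 3 for the probes counted as higher.

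In each of the 6 fits that left out 1 ED or EDRE array, 49 of the genes counted as higher and 81 of those counted as lower were counted again in the same direction. With EDRE replicate 1 as the only EDRE array, 18 of the 49 and 26 of the 81 still were. The 18 included Egr1, Cabyr, Drc7, Ap2b1, Prr7, Rnf225, the stress-response gene Ddit4l and Ghrl, which encodes the hormone ghrelin. In the 26 were Slc25a30, a mitochondrial carrier, the glucagon receptor gene Gcgr, the serine protease gene St14, Tac2, Rasal1, Uevld and Otog, while most of the others were transcripts known only by a cDNA or UCSC name. Gcgr, St14, Tac2, Rasal1 and Otog were well above background on EDRE replicate 1 but on neither dim array, and Slc25a30 on 2 of the 3 EDRE arrays. A fit with 1 EDRE array takes its spread from the other groups. Those named here beside the rule were chosen after their values were seen.

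Promoter sequences are shown for 4 genes that rose, from the immediate early, p53 target, growth factor and vesicle coat genes described next. Each sequence shown holds a marked motif, so the 4 are not typical of the risen genes. The sequences are the 250 bases before the start site in RefSeq (GRCm38.p6), 5′ to 3′ on the strand of the gene. Capitals mark the TATA box (TATAAA) of Fos, which starts 33 bases before the start site, and the full cyclic AMP response element (CRE, TGACGTCA) of the other promoters, which starts 166 (Btg2), 61 (Areg) and 47 (Ap2b1) bases before it. The regions are chr12:85473640-85473889 (Fos, plus strand), chr1:134079156-134079405 (Btg2, minus strand), chr5:91139349-91139598 (Areg, plus strand) and chr11:83302447-83302696 (Ap2b1, plus strand).
Fos: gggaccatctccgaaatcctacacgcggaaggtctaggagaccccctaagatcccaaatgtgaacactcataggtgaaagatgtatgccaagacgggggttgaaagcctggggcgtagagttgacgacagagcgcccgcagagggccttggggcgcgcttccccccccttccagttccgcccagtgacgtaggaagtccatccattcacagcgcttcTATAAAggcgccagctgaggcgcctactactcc
Btg2: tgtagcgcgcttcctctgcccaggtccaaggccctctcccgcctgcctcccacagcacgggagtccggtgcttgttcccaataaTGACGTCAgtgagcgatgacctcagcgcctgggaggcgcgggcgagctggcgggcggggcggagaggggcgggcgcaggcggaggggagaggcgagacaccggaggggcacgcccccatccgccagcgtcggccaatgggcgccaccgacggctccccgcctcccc
Areg: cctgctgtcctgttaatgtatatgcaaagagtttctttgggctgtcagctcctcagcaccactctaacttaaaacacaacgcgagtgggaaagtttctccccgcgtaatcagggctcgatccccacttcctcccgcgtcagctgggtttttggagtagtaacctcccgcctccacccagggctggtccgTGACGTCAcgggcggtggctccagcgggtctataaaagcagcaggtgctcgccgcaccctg
Ap2b1: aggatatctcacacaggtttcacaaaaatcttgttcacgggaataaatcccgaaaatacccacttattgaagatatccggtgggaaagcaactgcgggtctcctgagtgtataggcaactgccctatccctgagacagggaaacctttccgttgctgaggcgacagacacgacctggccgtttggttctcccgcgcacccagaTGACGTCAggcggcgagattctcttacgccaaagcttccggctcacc

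Over 300-base promoters, searched on both strands, 1.79% of all 32851 held this CRE and 13.6% TATAAA. Among the genes named here that rose, 20 had a promoter in the RefSeq table. The CRE lay in 3 of them (Ap2b1, Areg and Btg2) and TATAAA in 3 (Fos, Areg and Epgn). The promoters shown thus include every CRE match among the 20 and do not stand for the others. Over all risen genes the share with the CRE was 2.57% (7 of 272), and over all tested genes it was 3.16% (342 of 10809), so the share was no higher among the risen genes. For an AP-1 site (TGANTCA) the shares were 7.72% of risen and 7.4% of tested genes, for an Egr site (GCGNGGGCG) 11% and 10.9%, and for the p53 half-site 10.3% and 8.49%. The CArG box, bound by SRF, was in 0.368% and 1.67%. A match of letters is a description of the window and not a bound site.

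Immediate early transcription factors were led by Fos and Egr1. Of 25 listed, 20 were tested, 3 rose and 0 fell (Fos, Egr1 and Klf6), beside 2.23% counted as higher among all genes. The list was bright, with a median ED level of 1.78. At an ED level of -0.25 or more, 16.4% of probes usable on every ED and EDRE array were counted as higher. Fos, a partner in AP-1, was at -1.49, -1.55 and -1.41 on the ED arrays and at -0.20 and 0.69 on EDRE replicates 1 and 3, and the marked spot of replicate 2 read 1.06. No EDRE array came near the ED arrays. Its log2 change was 1.73 ± 0.28 (SE, n = 3 and 2, adjusted p = 0.00638), a 3.32-fold rise, and 1.29 on EDRE replicate 1. Egr1, a zinc finger factor of the same early wave, was at 0.81, 0.54 and 0.21 on the ED arrays and at 1.64, 2.61 and 2.36 on the EDRE arrays. The groups did not overlap, as was true of 25.4% of the probes usable on all 6 arrays. Egr1 rose by 1.68 ± 0.24 (SE, n = 3 and 3, adjusted p = 0.00291), and by 1.12 on EDRE replicate 1. With EDRE replicate 1 as the only EDRE array, and so with the spread of the other groups, limma gave an adjusted p of 0.0404 for Fos and 0.0472 for Egr1.

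Klf6, a zinc finger factor of the Krüppel-like family, rose by 1.17 ± 0.24 (adjusted p = 0.0170), with a change of 0.44 on EDRE replicate 1 against 1.62 and 1.47 on replicates 2 and 3. Not every immediate early factor followed. Jun was at -0.32 ± 0.26 (adjusted p = 0.506) and Atf3, a stress-induced repressor, at -0.10 ± 0.24 (adjusted p = 0.853), both on EDRE replicate 1 alone. The marked spots of Atf3 on replicates 2 and 3 read 1.5 and 1.73 against 1.56 to 1.88 on the ED arrays. Nr4a2 (1.07, adjusted p = 0.0555), Maff (0.87, adjusted p = 0.0517) and Junb (0.83, adjusted p = 0.103) had changes of 0.21, 0.10 and -0.11 on EDRE replicate 1. The median change over the 20 was 0.63, against 0.03 over all genes tested. On EDRE replicate 1 the median was 0.09, against -0.11 over all genes. But the list was brighter, with a median ED level of 1.78 against -2.46. Probes usable on every ED and EDRE array with an ED level of -0.25 or more had a median change of 0.82. With outlier spots kept, tested probes at ED levels of 1.65 to 2.95 had a median of 0.09 on EDRE replicate 1. The part of brightness in the list medians was not tested.

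**Figure D3:**
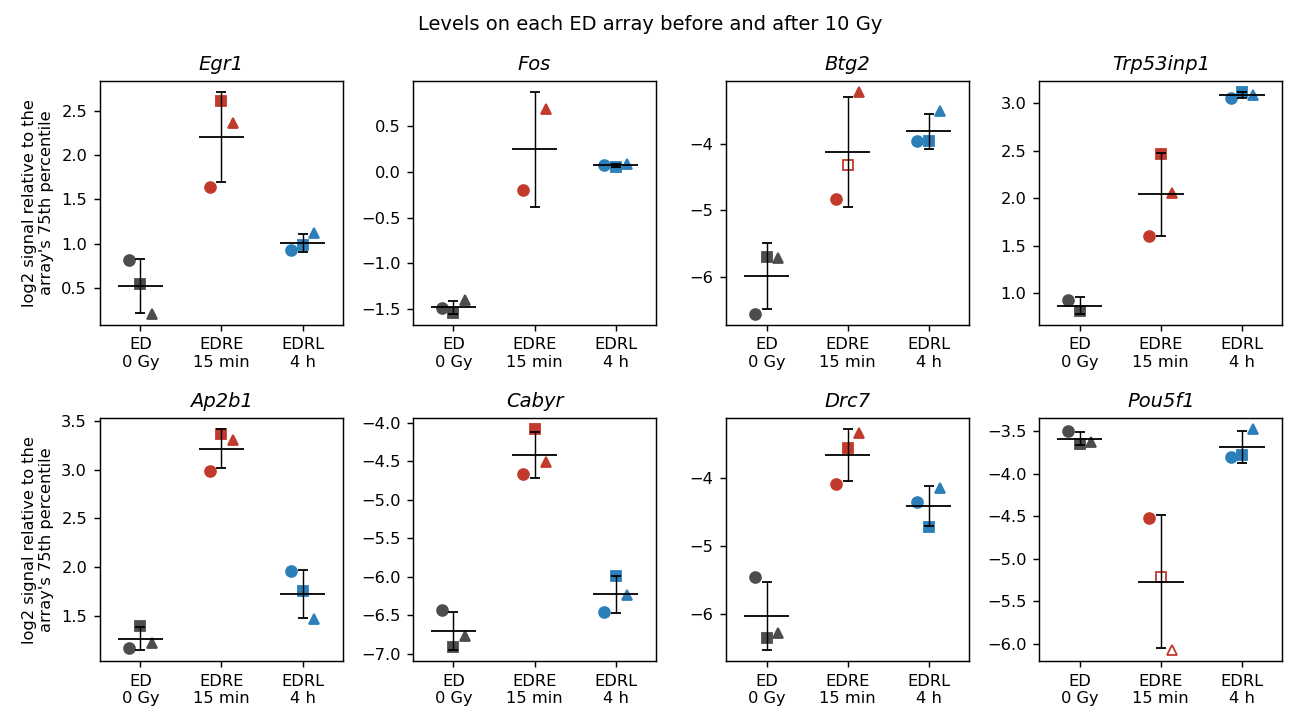
Log2 signal (array's 75th percentile set to 0) for 8 genes on the ED, EDRE and EDRL arrays, 1 point per usable spot (circle, square and triangle for replicates 1, 2 and 3), with means and SD as bars and open points for ED or EDRE spots not well above background. Egr1, Ap2b1 and Cabyr were highest at 15 min, Trp53inp1 was highest at 4 h, and Pou5f1 was lowest at 15 min.

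Feedback and secreted immediate early genes were divided. Of 26 listed, 24 were tested, 2 rose, among them Btg2, and 1 fell (Dusp6), beside 2.23% higher and 2.97% lower over all genes. The median change was -0.07. Dusp6, a phosphatase that switches off ERK, was at 3.29, 3.12 and 3.41 on the ED arrays and 2.21 on EDRE replicate 1. Its marked spots on EDRE replicates 2 and 3 read 1.74 and 1.00, so all readings after IR were below the ED arrays. It fell by 1.07 on the log2 scale (SE 0.20, n = 3 and 1, adjusted p = 0.0156). Spry2, another inhibitor of ERK signaling, changed by -1.27 ± 0.57 (adjusted p = 0.174), with -1.63 on EDRE replicate 1.

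Of the p53 target genes 3 rose and 0 fell of the 27 tested among 32 listed, beside 2.23% higher over all genes. The list was brighter, with a median ED level of 0.47 against -2.46 over all genes. Of the probes usable on all 6 arrays with an ED level of -0.25 or more, 16.4% were counted as higher. Of the 6 fits without 1 array, Btg2 and Bax were counted in 1 and Trp53inp1 in 2, and with EDRE replicate 1 alone the adjusted p was 0.387, 0.776 and 0.232. Btg2, an antiproliferative gene on both this list and the one before, was at -6.56, -5.70 and -5.71 on the ED arrays and at -4.84, -4.31 and -3.22 on the EDRE arrays. The groups did not overlap, although the spot of EDRE replicate 2 was not well above background. Btg2 rose by 1.87 ± 0.44 (adjusted p = 0.0267) and by 1.15 on EDRE replicate 1. Trp53inp1, which promotes p53-dependent cell death, was at 0.93 and 0.81 on the 2 ED arrays with a usable spot and at 1.6, 2.47 and 2.05 on the EDRE arrays, a change of 1.17 ± 0.25 (adjusted p = 0.0196). Bax, a mitochondrial death effector, was at 2.80, 3.06 and 3.43 on the ED arrays. On EDRE replicate 1 it was at 3.45, barely above the highest ED array, and at 4.48 and 4.78 on the dim arrays, a change of 1.14 ± 0.32 (adjusted p = 0.0479).

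The best known p53 targets had not passed the test by 15 min. Mdm2, which degrades p53, was at 3.24 to 3.39 on the ED arrays and 3.84 on EDRE replicate 1, and its marked spots on replicates 2 and 3 read 4.38 and 3.97. The change of 0.53 ± 0.20 rested on EDRE replicate 1 (adjusted p = 0.109). Cdkn1a (p21), the cell cycle inhibitor, changed by -0.23 ± 0.41 (adjusted p = 0.797), and its other probe by 0.07, both on EDRE replicate 1 alone. Its marked spots on replicates 2 and 3 read -0.03 and -0.59, above the ED arrays (-1.49 to -0.76). The list median was 0.28 in all and 0.14 on EDRE replicate 1.

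The 4 h arrays show where these genes went. EDRE replicate 1 and the 3 EDRL arrays shared a scan time, so for this array the 2 times can be read side by side. Egr1 was at 1.64 on it against 0.93, 0.98 and 1.12 at 4 h, and Klf6 at 2.96 against 2.21, 1.81 and 2.03. Both were lower on every 4 h array. Fos was at -0.20 against 0.08, 0.05 and 0.09, Btg2 at -4.84 against -3.96, -3.96 and -3.50, and Trp53inp1 at 1.6 against 3.06, 3.12 and 3.09. Those 3 genes were higher on every 4 h array than on EDRE replicate 1. On EDRE replicate 3, of another scan time, Fos (0.69) and Btg2 (-3.22) were above every 4 h array. Against ED cells, the 4 h changes were 0.49 for Egr1 (adjusted p = 0.383), 1.55 for Fos (adjusted p = 0.00341), 2.18 for Btg2 (adjusted p = 0.0144), 2.22 for Trp53inp1 (adjusted p = 0.000160) and 1.39 for Mdm2 (adjusted p = 0.000109). These comparisons share the ED arrays with those at 15 min.

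Genes of the damage response itself mostly had changes under 1. Of 26 damage sensing kinases and mediators, 23 were tested, 1 rose and 0 fell. All 23 had a change above 0, with a median of 0.38, and 0.20 on EDRE replicate 1. Over all genes these medians were 0.03 and -0.11. The list was brighter, with a median ED level of 0.84 against -2.46, and the part of brightness was not tested. Rnf168, the ubiquitin ligase that marks chromatin beside breaks, changed by 1.12 ± 0.30 (adjusted p = 0.0382), with 0.41 on EDRE replicate 1. Atr, the kinase of replication stress, was at 0.58 ± 0.15 (adjusted p = 0.0387) and 0.21 on EDRE replicate 1, below the limit of 1. Among 20 double-strand break repair genes tested, 0 rose and 1 fell. That gene, Rad51d, had 1 usable EDRE spot, and its marked spot on EDRE replicate 1 read -1.26, above both usable ED spots (-3.23 and -2.07). With normexp its change turned to 0.51.

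PP2A, the phosphatase that the study followed up, removes phosphates from ATM, H2AX and Akt. Its catalytic subunit genes did not pass the test in ED cells at 15 min. Ppp2ca was at 3.21, 3.31 and 3.52 on the ED arrays and 3.32 on EDRE replicate 1, with marked spots of 3.02 and 2.97, a change of -0.03 ± 0.39 (adjusted p = 0.978). Ppp2cb changed by 0.17 ± 0.25 (adjusted p = 0.741). Of 16 PP2A subunit genes tested, 1 rose and 1 fell. Ppp2r5e, a regulatory B56 subunit, rose by 1.17 ± 0.30 (adjusted p = 0.0348), with 0.24 on EDRE replicate 1. Ppp2r5d, another B56 subunit, was at 0.36, -0.49 and -0.31 on the ED arrays and at -2.22 and -3.63 on EDRE replicates 2 and 3 (adjusted p = 0.0374), but the marked spot of EDRE replicate 1 read 0.43, above the ED arrays.

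None of 23 Akt and PI3K survival genes passed the test. Akt1 itself changed by 0.09 ± 0.24 (adjusted p = 0.872) on EDRE replicate 1 alone, and its marked spots read 5.70 and 5.78 against 4.92 to 5.33 on the ED arrays. Pik3cd had the smallest p (-1.22 ± 0.34, adjusted p = 0.0611), with -0.34 on EDRE replicate 1. In the BCL2 family Bax was the 1 gene counted of 18 tested. Bcl2, which opposes Bax, changed by 0.41 ± 0.28 (adjusted p = 0.415) on EDRE replicate 1 alone, while its marked spots on replicates 2 and 3 read -0.69 and -1.30, below the ED arrays (-0.05 to 0.13). Its other probe changed by -0.22.

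Growth factor genes of the EGF receptor system included 2 that rose of 8 tested, beside 2.23% higher over all genes. Of the 6 fits without 1 array, Areg was counted in 2 and Epgn in 1. On EDRE replicate 1 Areg changed by 0.63 and Epgn by 0.47. Areg (amphiregulin) was at -3.93, -3.65 and -2.91 on the ED arrays and at -2.87, -2.43 and -1.95 on the EDRE arrays. EDRE replicate 1 lay just above the highest ED array. The change was 1.08 ± 0.27 (adjusted p = 0.0336), and at 4 h it was 1.44 (adjusted p = 0.00962). Epgn (epigen) was at -4.33 to -4.83 on the ED arrays and -4.16, -3.02 and -3.51 on the EDRE arrays, a change of 1.07 ± 0.27 (adjusted p = 0.0334).

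Few genes of other stress programs were counted, beside 2.23% higher and 2.97% lower over all genes. Hspa1b, the inducible HSP70 chaperone, rose by 1.10 ± 0.24 (adjusted p = 0.0191) with 0.55 on EDRE replicate 1, but it shares nearly all its sequence with Hspa1a, whose probe changed by 0.27, so the pair is uncertain. Hspa2, a testis-enriched HSP70, was at -0.53, -0.43 and -0.47 on the ED arrays and -1.71 on EDRE replicate 1, the basis of its call (adjusted p = 0.00834), while its marked spots read -0.76 and -0.50. These were the 2 genes counted of 21 heat shock genes tested. Of 21 unfolded protein response and 23 antioxidant genes tested 0 were counted. Sdf2l1 (-0.98, adjusted p = 0.0369) and Prdx2 (0.77, adjusted p = 0.0382) had the smallest p of each list, with changes under 1 in size and of -0.98 and 0.16 on EDRE replicate 1. The change of Sdf2l1 rested on that array alone. Its marked spots on replicates 2 and 3 read 0.66 and 0.22, against -0.11 to 0.29 on the ED arrays. The other probe of Prdx2 changed by 0.30. The list medians on EDRE replicates 1, 2 and 3 were 0.14, 1.08 and 0.94 for heat shock, -0.05, 0.95 and 0.66 for unfolded protein response and 0.13, 0.93 and 0.90 for antioxidant genes.

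Of 32 interferon-stimulated genes tested 1 rose and 2 fell, beside 2.23% higher and 2.97% lower over all genes. Eif2ak2 (PKR, the double-stranded RNA kinase) rose by 1.00 ± 0.20 (adjusted p = 0.0133) and by 0.54 on EDRE replicate 1. Oas1d and Oas1f, of the oligoadenylate synthetase family, were counted as lower by 1.34 and 1.09, but both were at the shared lowest value on EDRE replicate 2. The marked spot of Oas1d on EDRE replicate 1 read -3.75, above its usable ED spots, and Oas1f changed by -0.65 there. With normexp the changes turned to 1.56 and 0.92, and with each array set to the median of probes detected on all ED, EDRE and EDRL arrays to 0.63 and 0.25. Their near-identical relatives on the array make them uncertain. At 4 h both were higher than in ED cells, by 1.38 (adjusted p = 0.0180) and 2.40 (adjusted p = 0.000338). Of 22 NF-κB target genes 1 was counted as lower, Traf1, also at the shared lowest value, which turned to 1.01 and 0.14 under the same alternatives.

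Abundant housekeeping transcripts read differently on the bright and the dim EDRE arrays. Of 74 ribosomal protein genes tested 3 rose, among them Rpl8 and Rpl29. Rpl8 was at 7.20, 7.34 and 7.54 on the ED arrays, 7.58 on EDRE replicate 1, and 9.05 and 8.60 on EDRE replicates 2 and 3. The list median was 0.07 on EDRE replicate 1 and 1.44 and 1.03 on replicates 2 and 3, which became 0.55 and 0.45 with marked spots kept. In 33 DNA replication genes tested, Mcm6, a helicase subunit, Cdt1, a licensing factor, and Orc4, of the origin recognition complex, were counted as higher by 1.07, 1.08 and 1.07, with 0.17, 0.13 and 0.27 on EDRE replicate 1. Of 26 mitotic genes 1 rose, the checkpoint kinase gene Bub1 (1.49 ± 0.38, adjusted p = 0.0351), with 1.14 on EDRE replicate 1, though its other probe changed by 0.53 (adjusted p = 0.696). The 55 oxidative phosphorylation and 18 actin and SRF target genes tested held 0 calls. The probe of Actb with the smallest p changed by 1.10 and another of its probes by -0.93, neither past the test.

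Srsf6, which directs alternative splicing, was the 1 of 31 splicing factor genes that rose, beside 2.23% higher over all genes. It was counted in all 6 fits without 1 array. It was at 3.18, 3.1 and 3.15 on the ED arrays and at 3.83, 5.24 and 4.99 on the EDRE arrays. EDRE replicate 1 lay above every ED array but changed by 0.68, against 2.09 and 1.85 on the dim arrays. The change was 1.54 ± 0.26 (adjusted p = 0.00680).

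Of 55 replication-dependent histone genes tested 0 rose and 6 fell, beside 2.23% higher and 2.97% lower over all genes. The 6 were all H2A genes, and 5 of the 6 calls rested on EDRE replicate 1 alone. H2ac10 was at 5.93, 6.05 and 6.10 on the ED arrays and 4.80 on EDRE replicate 1 (adjusted p = 0.0104). H2ac15 and H2ac24 had 4.68 and 5.10 on that array, against at least 5.86 on every ED array. The marked spots of H2ac10, H2ac15 and H2ac24 on EDRE replicates 2 and 3 read 4.55 to 5.93, and that of H2ac15 on replicate 3 (5.93) lay within its ED range. H2ac19, a dimmer probe with all spots usable, was at -2.07, -1.85 and -2.22 on the ED arrays and -2.81, -3.36 and -3.66 on the EDRE arrays (-1.23 ± 0.20, adjusted p = 0.00509), but it turned to 0.11 with each array set to the median of probes detected on all ED, EDRE and EDRL arrays. These genes have near-identical sequences, so the probes may read the same transcripts and are uncertain as separate genes. The list median was 0.05, and the other 49 genes were not counted.

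**Figure D4:**
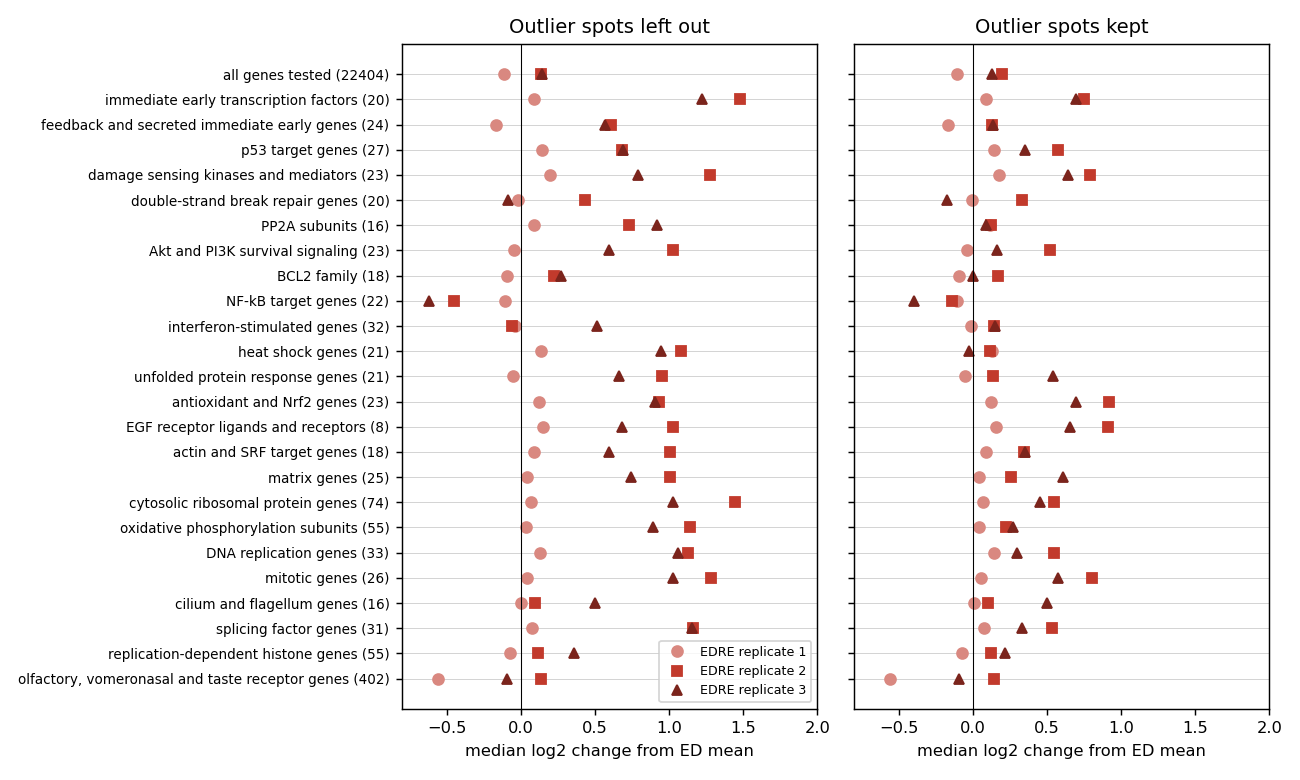
Median log2 change from the ED mean over the tested genes of each list (number tested in parentheses) on each EDRE array, with outlier spots left out (left) or kept (right). Medians on EDRE replicate 1 stayed between -0.16 and 0.20 except for the receptor genes at -0.56, while those of replicates 2 and 3 reached 1.48 and 1.22 with outlier spots left out.

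The largest rises among genes detected on all 6 arrays without overlap mostly belonged to genes of low level in ED cells. Rcan2, a regulator of calcineurin, rose by 2.38 ± 0.40 (adjusted p = 0.00680), with 1.22 on EDRE replicate 1 against 3.07 and 2.86 on the dim arrays. Drc7, a subunit of the regulatory complex that joins ciliary dynein arms, was at -5.46, -6.36 and -6.29 on the ED arrays and at -4.08, -3.55 and -3.33 on the EDRE arrays. Its rise of 2.38 ± 0.25 (5.22-fold, adjusted p = 0.000526) was 1.96 on EDRE replicate 1. It was the 1 gene counted of 16 cilium and flagellum genes tested. At 4 h Drc7 was at -4.36, -4.72 and -4.15, still 1.63 above ED cells (adjusted p = 0.00184).

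Cabyr encodes a calcium-binding protein of the sperm tail. It was at -6.43, -6.91 and -6.78 on the ED arrays and at -4.66, -4.08 and -4.51 on the EDRE arrays, far apart. The negative controls read -8.98, -6.59 and -7.39 on the EDRE arrays, well below these values. Cabyr rose by 2.29 ± 0.20 (4.89-fold, adjusted p = 0.000112), and its other tested probes by 2.40 and 1.80. At 4 h it was at -6.46, -5.99 and -6.24, near the ED level (0.47, adjusted p = 0.300). Ap2b1, a large subunit of the AP-2 adaptor of clathrin vesicles, stood out among bright genes. It was at 1.18, 1.41 and 1.23 on the ED arrays and at 2.98, 3.36 and 3.30 on the EDRE arrays, with little spread in either group. The rise was 1.94 ± 0.22 (3.84-fold, adjusted p = 0.000682), and the other probe, usable on EDRE replicate 1 alone, changed by 1.80. At 4 h it was at 1.47 to 1.96, above every ED array but below every EDRE array (0.46, adjusted p = 0.358).

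Tbr1, a T-box factor of cortical neurons, was at -5.78 to -5.64 on the ED arrays and at -3.48, -4.05 and -3.23 on the EDRE arrays (2.11 ± 0.42, adjusted p = 0.0154). EDRE replicate 1 rose as far as the others. Rnf225, a RING finger gene, rose by 1.36 ± 0.16 (adjusted p = 0.000929), with 1.10, 1.37 and 1.6 on the 3 EDRE arrays. The other large rises were transcripts without a gene name (AK019300, uc008rdm, uc009kbw, AK032188 and AK021106) and Gm5148, between 2.08 and 2.26. On EDRE replicate 1 they changed by 1.95, 1.62, 1.38, 1.09, 0.47 and 1.31. AK021106, at 3.40 and 2.90 on the dim arrays, and AK032188 were counted in 1 of the 6 fits without 1 array. AK019300 was at -4.14, -3.96 and -3.84 on the EDRE arrays against -6.09 ± 0.18 (SD, n = 3) in ED cells, and it too was higher at 4 h, by 1.88 (adjusted p = 0.00224). AK018612, among the 10 smallest p, rose by 1.61 ± 0.18 (adjusted p = 0.000682), with 1.49 on EDRE replicate 1.

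Among the 10 smallest p of genes counted in all 6 fits without 1 array, 5 were falls, 4 of them in unnamed transcripts. AK015137 was at -3.12, -3.12 and -3.20 on the ED arrays, -5.72 on EDRE replicate 1, and at or near the lowest values of the dim arrays (-6.59 and -6.11). It fell by 2.99 on the log2 scale (SE 0.23, adjusted p = 2.87e-05), and at 4 h it was at -2.72, -3.19 and -3.19, where the ED arrays had been. AK037708 was well above background on all 6 arrays, at -1.5, -1.25 and -1.47 in ED and -3.25, -2.98 and -3.10 in EDRE cells. It fell by 1.7 (SE 0.19, adjusted p = 0.000682) and at 4 h was at -1.27 to -1.47. Falls were also counted for uc009srf (-1.5), uc008imv (-1.82) and AK018564 (-1.83), by 1.64, 1.5 and 1.32 on EDRE replicate 1. Of these, uc008imv was not well above background on either dim array and uc009srf not on EDRE replicate 2. AK148985, noticed after its values were seen, was the 1 gene that the methods' t-test left once p-values were adjusted. It read -2.75, -2.74 and -2.77 in ED and -3.95, -3.98 and -3.89 in EDRE cells.

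Among the 10 largest falls detected on all arrays, AK011638, BC019958, uc008kbk, Rbm12b2, uc008eyu and AK085083 were lower by 1.57, 2.21, 1.57, 1.25, 1.14 and 1.11 on EDRE replicate 1. In contrast AK047418, Pdhb, a subunit of pyruvate dehydrogenase, and Plekha3, a Golgi lipid-binding protein, changed by -0.28, -0.17 and -0.43 there. Pdhb was at 1.36 on that array against 1.44 to 1.65 in ED cells, and at -1.11 and -1.27 on the dim arrays. H2-Q7, a class I histocompatibility gene of a multigene family and thus uncertain, fell by 3.42 (SE 0.33, adjusted p = 0.000604) on the dim arrays alone. Its marked spot on EDRE replicate 1 read 2.67, within the ED range of 2.16 to 3.51, and its other probe changed by 0.57.

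Pou5f1 was lower at 15 min. It was at -3.50, -3.65 and -3.62 on the ED arrays, -4.52 on EDRE replicate 1, and -5.22 and -6.07 on the dim arrays, where it was not well above background. The change was -1.68 ± 0.28 (adjusted p = 0.00634), and on the shared scan time the 4 h arrays read -3.81, -3.78 and -3.47. Esrrb, another pluripotency factor, changed by -0.99 ± 0.19 (adjusted p = 0.0109) and by -0.70 on EDRE replicate 1, just under the limit. Of 7 pluripotent markers tested 1 was counted as lower and 0 as higher. Sox17, an endoderm factor, fell by 1.44 (SE 0.27, adjusted p = 0.0111), by 0.74 on EDRE replicate 1, and was likewise not well above background on the dim arrays. With normexp background correction its change turned to 0.48.

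Olfactory, vomeronasal and taste receptor genes, best known from sensory neurons, had 402 of 1371 members tested, 0 higher and 6 lower. Over all genes 2.23% were higher and 2.97% lower. Their median ED level was -5.34, and the median change was -0.56, 0.14 and -0.09 on EDRE replicates 1, 2 and 3. Probes usable on all 6 arrays with an ED level of -5.74 to -5.25 had a median of -0.41 on EDRE replicate 1. The 4 with the smallest p were Tas2r109, Olfr901, Vmn1r148 and Olfr632, of which the last 3 turned to changes above 0 both with normexp and with that scaling to commonly detected probes. Tas2r109 rested on the dim arrays, since its marked spot on EDRE replicate 1 read -1.17 against -1.73 to -1.04 in ED cells. In the matrix list 1 of 25 genes was counted, Mmp13, on 1 usable spot in each group.

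To ask whether the response at 15 min differed from that of ES cells, the IR effects in the 2 cell types were compared as an interaction. It was counted for 538 genes, 2.09% of 25773 tested, with the effect higher in ED cells for 319 and lower for 219. Fos was at 1.43 ± 0.12 (SD, n = 3) in ES and 1.40 ± 0.08 in ESRE cells, a change of -0.03, so the effect in ED cells was larger by 1.76 (adjusted p = 0.0342). Fos thus lay above its irradiated ED level in ES cells before IR. Egr1 changed by 0.23 in ES cells, a difference of 1.45 (adjusted p = 0.0454), and Klf6 by -0.44, a difference of 1.62 (adjusted p = 0.0332). Cabyr (2.37, adjusted p = 0.00320), Drc7 (2.62, adjusted p = 0.00567) and Ap2b1 (2.01, adjusted p = 0.00988) differed too, with ES changes of -0.08, -0.24 and -0.07. These 3 genes were higher in unirradiated ES than in unirradiated ED cells, at -3.37, -3.06 and 2.88. AK015137 rose by 0.51 in ES cells, a difference of -3.50 (adjusted p = 0.000468). Most genes given here were named for their change in ED cells, and the same arrays enter the interaction. Their differences are thus in part fixed by that choice.

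For the p53 targets the difference did not pass the test, with 1.67 for Btg2 (adjusted p = 0.172), 0.37 for Trp53inp1 (adjusted p = 0.588) and 1.16 for Bax (adjusted p = 0.197). The same held for Ppp2ca, which changed by 1.32 in ES cells (adjusted p = 0.107) and by -0.03 in ED cells, a difference of -1.35 (adjusted p = 0.184). With scan time as a random block 0 genes were counted for the interaction by limma. Only 259 of 28098 probes had an unadjusted p under 0.05, fewer than the 1405 expected by chance.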

How the data were processed

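The authors deposited the scanner output of each array, whose processed signal is a background-subtracted intensity from Agilent Feature Extraction (version 9.1 per the labels and 10.7.3.1 per the file headers) with no normalization between arrays. They also deposited a table of log2 values, used here as an alternative. Of 39448 spots per array, 1417 control and 200 negative control spots were left out, which left 37246 probes with 34289 names, and 22216 of these probes were named through RefSeq. Outlier spots, whether non-uniform or by population, were dropped. Each array's 75th percentile was subtracted from its log2 signals. A probe was tested if all 3 ED or all 3 EDRE arrays had it well above background. All 18 arrays entered 1 limma model with 6 groups (limma 3.58.1, R 4.3.3), p-values were adjusted over all probes tested (Benjamini-Hochberg), and a gene was counted at an adjusted p under 0.05 with a change beyond 1 on the log2 scale. A gene is given by its probe with the smallest p.

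Genes named were the 10 largest rises and 10 largest falls detected on all 6 arrays without overlap, the 10 smallest p among genes counted in all 6 fits without 1 ED or EDRE array, up to 4 counted genes per list or else the gene with the smallest p, and 12 fixed genes (Fos, Egr1, Atf3, Btg2, Trp53inp1, Cdkn1a, Mdm2, Ppp2ca, Ppp2cb, Drc7, Bcl2 and Akt1). Some genes that the rule names are not reported here. Members and lists were chosen with earlier results of these data known. The fit was tested on simulated data with independent noise on each value. The simulated data held no brightness difference of the dim arrays and no spread shared within a scan time. The simulation therefore cannot speak to either. Alternatives changed the background correction, scaling, filters, arrays fitted, weights, blocks and test. The number of arrays limits the precision.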

Additional observations from a re-analysis of the deposited data

Results flagged for a closer look

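By the interaction term of the limma fit, the change at 15 min differed between ED and ES cells with an adjusted p under 0.05 for 23 genes named. Over all genes 538 of 25773 (2.09%) were counted. Most named genes were chosen by their change between the ED and EDRE arrays, which also enter the interaction. Their passing is thus in part fixed by that choice. With scan time as a random block 0 genes were counted. The values below are the ED change less the ES change on the log2 scale, and no cause of the differences was tested. Among genes that rose in ED cells it was 1.45 for Egr1, 1.76 for Fos and 1.62 for Klf6 of the immediate early factors, 2.37 for Cabyr, 2.62 for Drc7, 2.01 for Ap2b1, 2.55 for Rcan2 and 1.45 for Eif2ak2, and 1.6 for AK018612 and 2.27 for AK019300. Among genes that fell it was -1.32 for Dusp6, -2.30 for Pou5f1, -2.95 for Pdhb, and -1.41, -1.46 and -1.42 for the histone genes H2ac10, H2ac15 and H2ac19. The unnamed transcripts gave -3.50 (AK015137), -1.91 (AK018564), -1.13 (AK037708), -4.73 (AK047418) and -1.58 (uc008imv). For Rad51d (-2.94) and H2-Q7 (-2.54) no usable spot of EDRE replicate 1 entered, and Dusp6, H2ac10 and H2ac15 rested on that array alone.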

How the results depend on the processing

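The limits are those of 3 arrays against 3, of which EDRE replicates 2 and 3 were dim, lost most bright spots and shared no scan time with ED. The counts of higher and lower genes (500 and 665) became 1356 and 533 with each array set to its median, 2951 and 144 with normexp, 1818 and 618 with no filter on dim probes, 518 and 219 with probes well above background on all arrays compared, 692 and 1067 with outlier spots kept, and 2741 and 2733 with array weights. They were 1457 and 640 in the authors' value table, 873 and 876 with no fold limit, 393 and 198 with EDRE replicate 1 alone, and 5931 and 57 with the scaling chosen after the data were seen. By limma they were 0 and 0 with only ED and EDRE fitted (3860 probes at an unadjusted p under 0.05, 1218 expected by chance). With scan time as a random block they were 0 and 1 (1044 probes, 1224 expected by chance). The methods' t-test gave 272 and 725 unadjusted, and 0 and 1 adjusted. Leaving out 1 array gave 78 to 3100 higher and 165 to 2332 lower genes, the top of both without EDRE replicate 1. Without ED replicate 1, 2 or 3 the counts were 81 and 165, 78 and 177, and 308 and 281, and without EDRE replicate 2 or 3 they were 195 and 326, and 84 and 197. Without EDRL replicate 2 or 3, or ES replicate 2, they were 305 and 423, 318 and 443, and 326 and 445.

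The interaction count of 538 became 56 with normexp, 265 with detection on all arrays and 7143 with array weights. It was 1214 with the scaling chosen after the data were seen. With scan time as a block it was 0 (259 probes at an unadjusted p under 0.05 by limma, 1405 expected by chance). Leaving out 1 array gave 136 to 6129, the lowest without ES replicate 2 and the highest without EDRE replicate 1. Deviations of same-numbered ED and EDRE arrays gave r of -0.03, 0.03 and -0.05, and those of other pairs -0.10 to 0.11. The gap between the bright and the dim EDRE arrays enters these values. They therefore cannot decide whether the numbers pair the arrays. With the replicate block the counts were 392 higher and 495 lower, and 382 for the interaction.

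Of the 67 named genes counted, 18 were counted again with EDRE replicate 1 alone, 51 with quantile normalization and 0 with scan time as a block. The median change of all tested genes was 0.03, and moved to 0.29 with each array set to its median, 0.59 with normexp and 0.94 with the scaling chosen after the data were seen. Falls whose change turned above 0 with normexp were Rad51d (0.51), Traf1 (1.01), Oas1d (1.56), Oas1f (0.92), Olfr901 (0.0252), Vmn1r148 (0.97), Olfr632 (0.32) and Sox17 (0.48). With the scaling chosen after the data were seen these were Traf1 (0.14), Oas1d (0.63), Oas1f (0.25), H2ac19 (0.11), Olfr901 (0.12), Vmn1r148 (0.17) and Olfr632 (0.26). The cause was not tested.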
